A study of Mus musculus with 5 samples.

Results

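The mRNAs of 7 cytoskeletal genes were examined: the 2 cytoplasmic actins Actb and Actg1, the α-tubulins Tuba1a, Tuba1b and Tuba1c, and the β-tubulins Tubb5 and Tubb4b. These were 7 of the 2760 genes with at least 1 deposited position on an exon, and they were chosen by name, not by their methylation. All their adenosines with deposited counts on a GENCODE M21 exon, on the strand of the call, were taken, which gave 2397 positions in the METTL3 inhibition dataset and 2048 in the Mettl5 dataset. A position was counted as an m6A site if it had more than 25 valid calls in every library of a dataset and a methylation level of 25% or more in at least 1 of them. By this rule the 7 mRNAs held 26 of 6201 sites in the METTL3 inhibition dataset and 21 of 1886 in the Mettl5 dataset, 33 different positions in all, of which 14 were sites in both datasets.

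All libraries were direct RNA sequencing of poly(A) RNA from mouse embryonic stem cells (mESCs), in which native RNA molecules are read through a nanopore. Each adenosine of a read is called as m6A, as another modification or as unmodified, or its call fails a confidence filter. The DMSO and STM2457 libraries came from E14 mESCs with reporters for a 2C promoter and for Zscan4, a doxycycline-dependent APOBEC1-YTH fusion that was not induced, and a homozygous FKBP12 degron tag on METTL3 that was not induced either. One culture received 30 μM STM2457, an inhibitor of the METTL3 methyltransferase, for 48 h and the other DMSO alone. The WT library and the libraries of 2 independent Mettl5 knockout clones, Mettl5KO_c1 and Mettl5KO_c2, were untreated and carry a batch label of their own. Each of the 5 libraries is thus the only one of its kind, except that the clones repeat the knockout, and they share the WT library.

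Actin polymerizes into microfilaments and α- and β-tubulin pair into the dimers of microtubules. Embryonic stem cells, like other dividing cells, use microtubules for the mitotic spindle and actin for cytokinesis. The proteins of a family differ from each other at few residues while the mRNAs differ at many synonymous bases and in their untranslated regions. METTL3 is the catalytic subunit of the complex that writes most m6A of mRNA, in a sequence context named DRACH (D is A, G or T, R is A or G, H is A, C or T), whereas METTL5 is known for methylating ribosomal RNA. Paralogous mRNAs therefore place the same codon in slightly different sequence, and the level at each copy can be read side by side.

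The libraries held 17897440 to 71574467 valid calls, of which 1.85 to 3.97% lay on the 7 mRNAs, and the median valid depth over the positions of these mRNAs was 244 to 327 reads. Of the 12 pluripotency markers checked, 11 had covered positions in the METTL3 inhibition dataset and 9 in the Mettl5 dataset. No endoderm, mesoderm or fibroblast marker had one, and of the neuroectoderm markers Tubb3 alone had, in the METTL3 inhibition dataset. Because many windows of these genes recur in other genes, reads can be placed on a wrong copy. Of the windows of 51 bases around the covered adenosines, 85.4% also occurred in a transcript of another gene for Tuba1b, 67.7% for Tuba1a, 61.8% for Tuba1c, 57.7% for Actg1, 53.8% for Tubb4b, 15.3% for Actb and 0.0% for Tubb5. Of the 33 sites, 16 lay in a window that occurred in no other gene. The annotation also places the gene model Gm49450 over 173 of the Tuba1a and Tuba1b positions and Gm23419 over 21 of those of Actg1, and these positions were kept.

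The sites on which the comparisons turn are given here as 21 bases of the GENCODE M21 transcript (mm10), 5′ to 3′, with the called adenosine at position 11 and the 5 bases around it in capitals. The actin sites come first, both copies at codon 154 and both copies just past the stop codon, because the 5 bases are the same and the levels are not.

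Actb codon 154: attgtgatGGACTccggagac

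Actg1 codon 154: attgtcatGGACTctggtgac

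Actb past the stop codon: ttctaggcGGACTgttactga

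Actg1 past the stop codon: ttctagatGGACTgagcaggt

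The α-tubulin sites are shown because codon 345 differs at a single base next to the call.

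Tuba1a codon 345: cagtttgtGGACTggtgcccc

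Tuba1b codon 345: cagtttgtAGACTggtgcccc

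Tuba1c codon 345: cagtttgtGGACTggtgcccc

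The β-tubulin sites are shown because one copy has AC and the other AT at the call.

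Tubb5 codon 404: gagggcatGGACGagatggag

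Tubb4b codon 427: cagtaccaGGACGctacagct

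Tubb5 codon 427: cagtaccaGGATGccaccgcg

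Tubb4b codon 165: agaatcatGAACAccttcagt

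Tubb5 codon 165: cgtatcatGAATAccttcagt

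Of the 33 sites, 21 lay in coding sequence and 12 in the 3′ UTR, and none in the 5′ UTR. The last exon held 30 of them, and the distance to the nearest exon junction was at least 51 nt. The context was DRACH at 21 of the sites. Among all covered exon positions of the METTL3 inhibition dataset 8.58% had a DRACH context, and among those of the 7 mRNAs 7.8%. Among sites, DRACH made up 20 of the 26 in that dataset, beside 88.6% of all sites. In the Mettl5 dataset it made up 13 of the 21, beside 78.9% of all sites. Shares over all sites are not given here for the regions and exons. Just inside the level threshold lay a Tubb4b position at 25.5% and just outside a Tubb5 position at 23.7% in the METTL3 inhibition dataset, and in the Mettl5 dataset a Tuba1a position at 25% and a Tuba1b position at 24.8%.

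In the METTL3 inhibition dataset the question was how far the sites of these mRNAs lost m6A when METTL3 was inhibited. Of the 26 sites, 22 had a lower level in STM2457 than in DMSO (adjusted p below 0.05, Fisher's exact test, two-sided, Benjamini-Hochberg over all 6201 sites), where 91.5% of all sites had. Of the 26, 1 site was higher, where 0.323% of all sites were. The mean level over the 26 sites was 47.5% in DMSO and 13% in STM2457, and the median relative decrease over those at 25% or more in DMSO was 84.4%, beside 80.2% over all such sites. The test compares 1 library with 1 library, so the spread between cultures is not part of it.

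**Figure D1:**
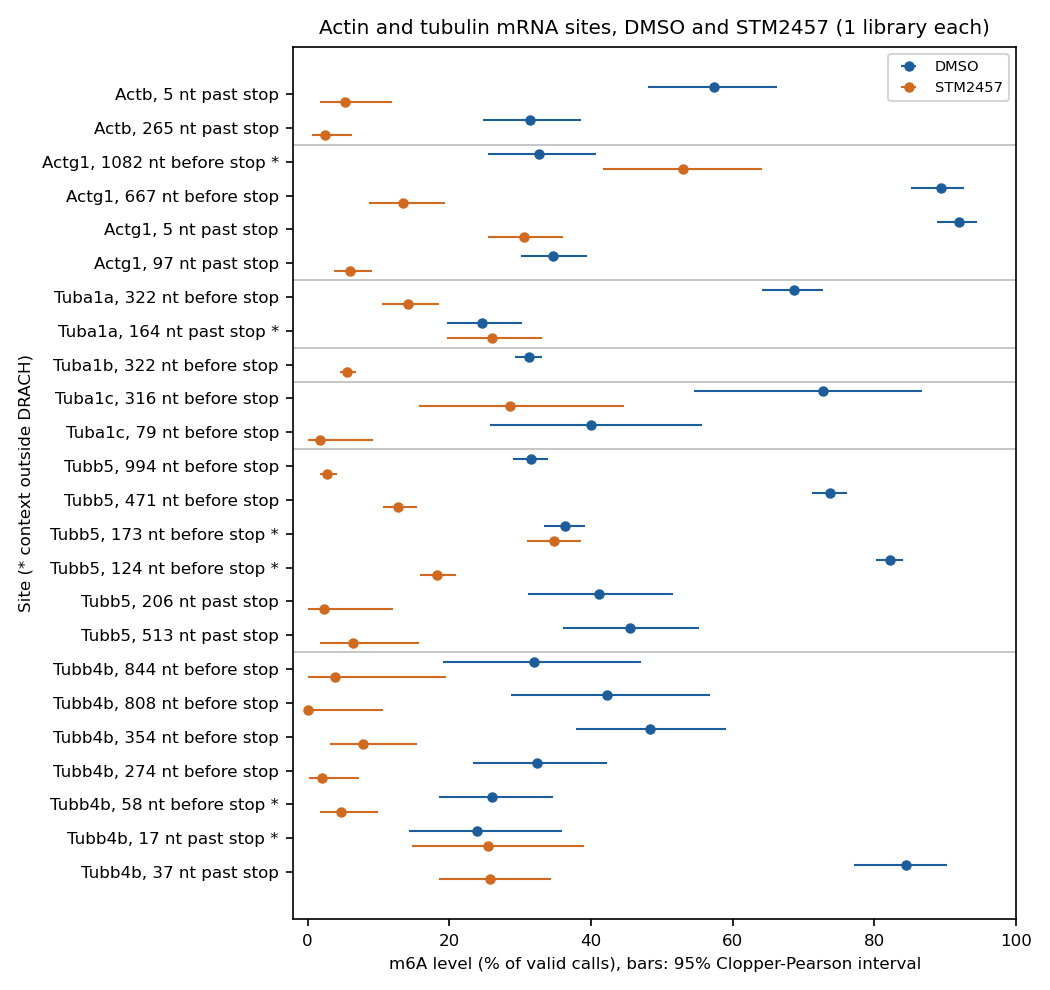
Methylation level (% of valid calls) of 24 of the 26 sites in the DMSO and STM2457 libraries, grouped by gene and ordered by distance from the stop codon; bars are 95% Clopper-Pearson intervals and an asterisk marks a context outside DRACH. All 18 DRACH sites drawn are lower in STM2457, and 4 of the 6 others were not called lower by Fisher's exact test.

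Actb, the β-actin mRNA (chromosome 5, 142903115 to 142906754, minus strand), had 2 sites, both GGACT in the 3′ UTR. At position 142903793, 5 nt past the stop codon, the level was 57.4% of 122 valid calls in DMSO and 5.26% of 95 in STM2457 (adjusted p = 2.94e-16, Fisher's exact test). At position 142903533, 265 nt past the stop codon, it was 31.4% of 185 and 2.50% of 160. The relative decreases were 90.8% and 92.0%.

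Actg1, the γ-actin mRNA (chromosome 11, 120345690 to 120348542, minus strand), had 4 sites and the 2 highest levels of the 7 mRNAs. The coding GGACT at position 120347252, in exon 4, was at 89.4% of 282 valid calls in DMSO and 13.4% of 172 in STM2457 (adjusted p = 8.53e-61, Fisher's exact test). The GGACT 5 nt past the stop codon, at position 120346385, was at 92.0% of 386 and 30.5% of 298 (adjusted p = 6.4e-65, Fisher's exact test), and an AAACT 97 nt past it, at position 120346293, was at 34.7% and 6.02%. The 30.5% left just past the stop codon was the highest level in STM2457 among the 20 DRACH sites.

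The remaining Actg1 site behaved otherwise. At position 120348046, codon 16 in exon 2, with the context GCATG, the level was 32.7% of 156 valid calls in DMSO and 53.0% of 83 in STM2457, a rise of 20.3 percentage points (adjusted p = 0.0041, Fisher's exact test). This was the site called higher. Of the calls there, 28.4% in DMSO and 34.6% in STM2457 did not pass the confidence filter, and with these counted as not m6A the levels were 23.4% and 34.6% (unadjusted p = 0.0333, Fisher's exact test). Of the 11 GCATG sites over all genes, 0 were lower and 2 higher in STM2457 by Fisher's exact test, at an adjusted and at an unadjusted p of 0.05 alike.

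The α-tubulin genes lie together on chromosome 15, Tuba1a at 98949837 to 98953703 and Tuba1b at 98931425 to 98934565 on the minus strand, and Tuba1c at 99029891 to 99038110 on the plus strand. Their mRNAs shared sites. At codon 345, Tuba1a (position 98950356) fell from 68.6% to 14.2%, Tuba1b (position 98931904) from 31.2% to 5.56% and Tuba1c (position 99037693) from 72.7% of 33 valid calls to 28.6% of 42. All of these were called, with adjusted p of 0.000268 or less (Fisher's exact test). Tuba1c, of which 136 positions at its 3′ end had deposited counts, had a further GGACA at position 99037930 with 40% of 45 valid calls in DMSO and 1.72% of 58 in STM2457. On Tuba1a, a TTATG in the 3′ UTR, 33 nt from the annotated end at position 98949870, was at 24.6% and 26.0% (adjusted p = 0.753, Fisher's exact test), with 45.1% and 46.0% of calls failed.

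Tubb5, the more deeply read β-tubulin mRNA (chromosome 17, 35833921 to 35838306, minus strand), had 6 sites. The highest was a GGACG at position 35835106, codon 404, with 82.2% of 1507 valid calls in DMSO and 18.2% of 905 in STM2457 (adjusted p = 1.22e-217, Fisher's exact test). GGACG is outside DRACH only by its last base, and it made up 0.247% of the exon positions of the dataset and 2.16% of the sites. Over all genes 130 of the 134 GGACG sites were lower in STM2457, with a median relative decrease of 83.9%. The GAACT at position 35835453, codon 288, went from 73.7% of 1237 to 12.8% of 771, and a TGACT at position 35835976, codon 114, from 31.5% to 2.70%. In the 3′ UTR an AAACT at position 35834776 was at 41.1% and 2.27%, and a GAACT at position 35834469 at 45.5% and 6.45%. The sixth site, a CTATG at position 35835155, codon 388, was at 36.3% of 1062 valid calls in DMSO and 34.8% of 633 in STM2457 (adjusted p = 0.579, Fisher's exact test), with 28.9% and 29.9% of calls failed. Of the 30 CTATG sites over all genes, 0 were lower and 2 higher in STM2457, again at either threshold.

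Tubb4b, the other β-tubulin mRNA (chromosome 2, 25222160 to 25224702, minus strand), had 7 sites. The highest was a GAACT in the 3′ UTR, 37 nt past the stop codon at position 25222271, with 84.5% of 129 valid calls in DMSO and 25.8% of 128 in STM2457 (adjusted p = 4.1e-21, Fisher's exact test). Its coding sites were at 48.4%, 42.3%, 32.4%, 31.9% and 26.0% in DMSO, in the order of codons 328, 177, 355, 165 and 427. In STM2457 the same codons were at 7.87%, 0.00%, 2.04%, 3.85% and 4.69%, and at codon 177, with 0 of 33 valid calls, 3 calls would have been 9.09% and the 95% interval ended at 10.6%. All 5 coding sites were called. A CTAAA 17 nt past the stop codon, at position 25222291, was at 23.9% of 67 and 25.5% of 55 (adjusted p = 1.0, Fisher's exact test), with 48.5% and 56.3% of calls failed.

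The sites thus fell into 2 kinds by context. All 20 DRACH sites and both GGACG sites were lower in STM2457, with relative decreases of 60.7 to 100% for the DRACH sites. Over all genes 97.5% of DRACH sites and 45.1% of other sites were lower. The other 4 sites, GCATG on Actg1, TTATG on Tuba1a, CTATG on Tubb5 and CTAAA on Tubb4b, were not called lower. Of these 4, the 2 at 25% or more in DMSO had a relative decrease under 25%, where 4.4% of all such sites had. The share of failed calls in DMSO was 0.0 to 11.3% at the 22 sites of the first kind and 28.4 to 48.5% at the other 4, and the part of this difference in the levels was not tested.

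The same residue encoded in 2 paralogs was compared next. The coding sequences were 88.6% identical between Actb and Actg1, 97.5 to 98.3% among the α-tubulins and 82.4% between Tubb5 and Tubb4b. Of the 19 aligned coding positions with a site in either copy in the METTL3 inhibition dataset, 14 had deposited counts on both copies, and at 13 of these the 95% interval of the difference in DMSO excluded 0 (Newcombe, counting error only). A pair entered because one copy reached 25% in these libraries, which by itself favours a gap, so the counts and levels of the pairs are a description. The median difference over the 14 pairs was 30.2 percentage points in DMSO and 6.57 in STM2457. Base changes between copies are written with the base of the first-named gene, the position in the 21 bases counted from 1 at the 5′ end, and the base of the other gene.

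**Figure D2:**
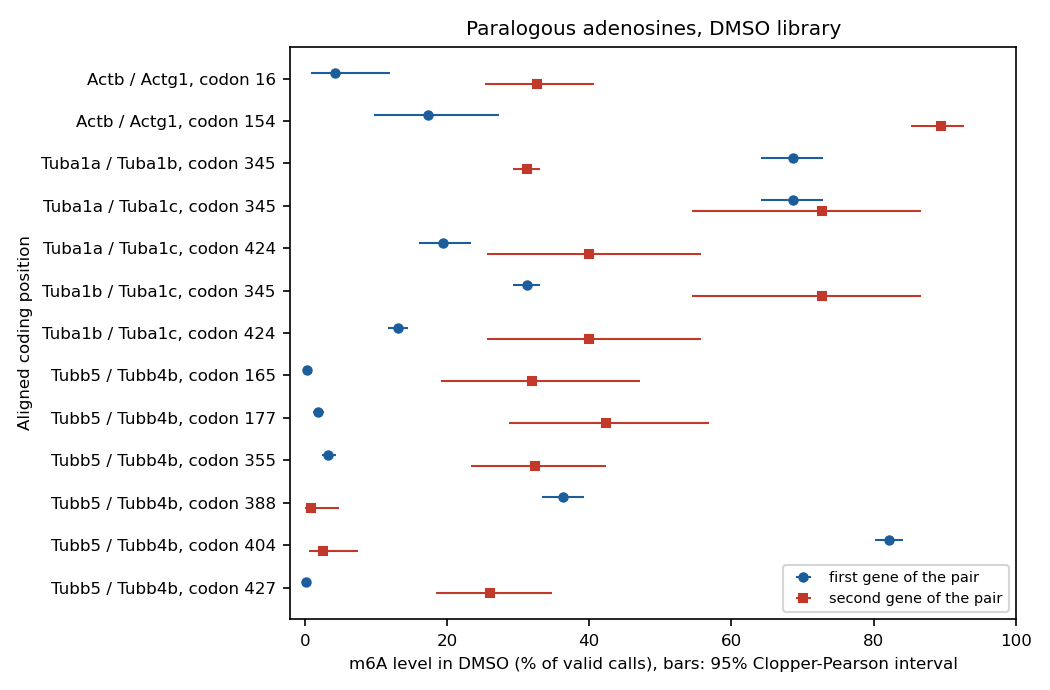
Methylation level in the DMSO library at 13 of the 14 aligned coding positions with deposited counts on both genes of a pair; circles are the first-named gene, squares the second, and bars 95% Clopper-Pearson intervals. The largest gaps are at codon 404 of Tubb5 and Tubb4b and at codon 154 of Actb and Actg1, and the intervals overlap widely at codon 345 of Tuba1a and Tuba1c.

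In the actins, codon 154 carried GGACT in both mRNAs, but the level in DMSO was 17.3% of 81 valid calls on Actb and 89.4% of 282 on Actg1, a difference of 72.1 percentage points (61.6 to 79.5). The windows differ by G6C, C15T and A18T, all outside the 5 bases. In WT the levels were 18.1% and 77.9%, in Mettl5KO_c1 16.3% and 86.3%, and in Mettl5KO_c2 19.9% and 88.8%. STM2457 left 1.96% on Actb and 13.4% on Actg1, and Actg1 was thus higher in all 5 libraries.

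Both actin mRNAs also carried GGACT 5 nt past the stop codon, a pair that was noticed in the data since UTRs were not aligned. Actg1 exceeded Actb by 34.6 percentage points in DMSO (25.6 to 43.8), 36.3 in WT (29.7 to 42.1), 37.9 in Mettl5KO_c1 and 31.8 in Mettl5KO_c2. After STM2457 the difference was 25.3 percentage points (17.1 to 31.5). Both windows occur in no other gene, whereas the codon 154 window of Actg1 does.

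At codon 16 of the actins, the GCATG that rose on Actg1 was at 4.29% of 70 valid calls on Actb in DMSO and 4.17% of 48 in STM2457. The 2 windows differ by C1T, at the far edge of the 21 bases. On Actg1 this window also occurs in other genes, and the share of reads from other copies was not tested.

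In the α-tubulins, the windows at codon 345 of Tuba1a and Tuba1b differ by G9A, which turns GGACT into AGACT. Tuba1a was higher by 37.4 percentage points in DMSO (32.7 to 41.9), 25.7 in WT (19.2 to 32.0), 32.2 in Mettl5KO_c1 and 33.5 in Mettl5KO_c2. Tuba1c, with the same 21 bases as Tuba1a, was at 72.7%, 4.11 percentage points above Tuba1a with an interval of -13.3 to 17.1. In STM2457 Tuba1c exceeded Tuba1a by 14.3 percentage points (2.13 to 29.7). Over all genes the pooled level in DMSO was 33.6% at GGACT positions and 16.8% at AGACT positions, the same order as in the copies. At codon 424, identical in all 3 mRNAs, the level in DMSO was 19.5% on Tuba1a, 13.1% on Tuba1b and 40% of 45 valid calls on Tuba1c.

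In the β-tubulins, 4 pairs had AC at the call on the higher copy and AT on the lower one, in windows that also differed at other bases. Each of these pairs entered through its AC copy, so the levels of those copies are set in part by the threshold of 25%. At codon 404, Tubb5 with GGACG was at 82.2% in DMSO and Tubb4b with GGATG at 2.61% of 115 valid calls, a difference of 79.6 percentage points (74.4 to 82.1), and the windows differ by G3A and C12T. Codon 427 showed the reverse arrangement, with GGATG on Tubb5 at 0.136% of 1467 valid calls and GGACG on Tubb4b at 26.0% of 123 (T12C and 3 further bases). At codon 165 the GAATA of Tubb5 was at 0.391% and the GAACA of Tubb4b at 31.9%, and at codon 177 the TGATA of Tubb5 was at 1.80% and the GGACA of Tubb4b at 42.3%. Over these 4 pairs the copies with AC were at 26.0 to 82.2% and those with AT at 0.136 to 2.61% in DMSO. In the Mettl5 dataset codon 404 kept this order, with Tubb5 at 69.4%, 77.0% and 75.0% in WT, Mettl5KO_c1 and Mettl5KO_c2 and Tubb4b at 0 of 32, 3.45% of 29 and 0 of 31 valid calls. For these counts of 0, 3 calls would have been 9.38% in WT and 9.68% in Mettl5KO_c2, and the 95% intervals ended at 10.9% and 11.2%. A further such pair there, codon 327, had GGACG on Tubb4b at 18.5% and GGATG on Tubb5 at 4.66% in WT. In Mettl5KO_c1 these were 11.5% and 5.61%, with an interval that included 0, and in Mettl5KO_c2 26.7% and 3.65%. After STM2457 codon 177 had 0 of 33 valid calls on Tubb4b and 1.72% of 756 on Tubb5. The Tubb4b windows of codons 165, 177, 327 and 427 also occur in other genes.

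Other β-tubulin pairs differed without such a change. At codon 355 both mRNAs had TGACA, with 3.34% of 1409 valid calls on Tubb5 and 32.4% of 102 on Tubb4b in DMSO, and the windows differ by C15T and G21T. At codon 388 the CTATG of Tubb5 was at 36.3% and the CCATG of Tubb4b at 0.885% of 113 in DMSO, and at 34.8% and 0.962% in STM2457. The GAACT of Tubb5 at codon 288, at 73.7%, has no counterpart on Tubb4b, whose base there is G (A11G). Over all 7 pairs with the same 5 bases on both copies, the differences in DMSO were 4.11 to 72.1 percentage points. The interval excluded 0 at 6 of the 7 in DMSO and at 3 in STM2457. In the Mettl5 dataset the interval excluded 0 at 2 of 4 such pairs in WT and at 1 of 4 in each clone. Among those whose interval included 0 in all 3 libraries were codon 42 and codon 349 of Tuba1a and Tuba1b, where Tuba1a was at a level above Tuba1b by 4.76 (-4.07 to 14.5) and 4.94 percentage points (-3.51 to 13.5) in WT.

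The Mettl5 dataset asked whether the sites changed in cells without METTL5. Of the 21 sites, 0 differed from WT in Mettl5KO_c1 and 1 in Mettl5KO_c2 (adjusted p below 0.05, Fisher's exact test, Benjamini-Hochberg over 1886 sites), where 0.53% and 0.583% of all sites did, and 0 differed in both clones, where 0.265% of all sites did so in the same direction. At an unadjusted p of 0.05, 2 sites were higher and 0 lower in Mettl5KO_c1, and 4 were higher and 1 lower in Mettl5KO_c2. Over all 1886 sites the same counts were 97 higher and 31 lower in Mettl5KO_c1 and 109 and 41 in Mettl5KO_c2. The mean level over the 21 sites was 40.8% in WT, 41.3% in Mettl5KO_c1 and 42.3% in Mettl5KO_c2. The median log2 ratio to WT was 0.08 and 0.04, beside 0.07 and 0.08 over all sites. Between the clones 0 of the 21 differed, where 1 of all 1886 sites did, and the smallest unadjusted p among the 21 was 0.0985 (Fisher's exact test).

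**Figure D3:**
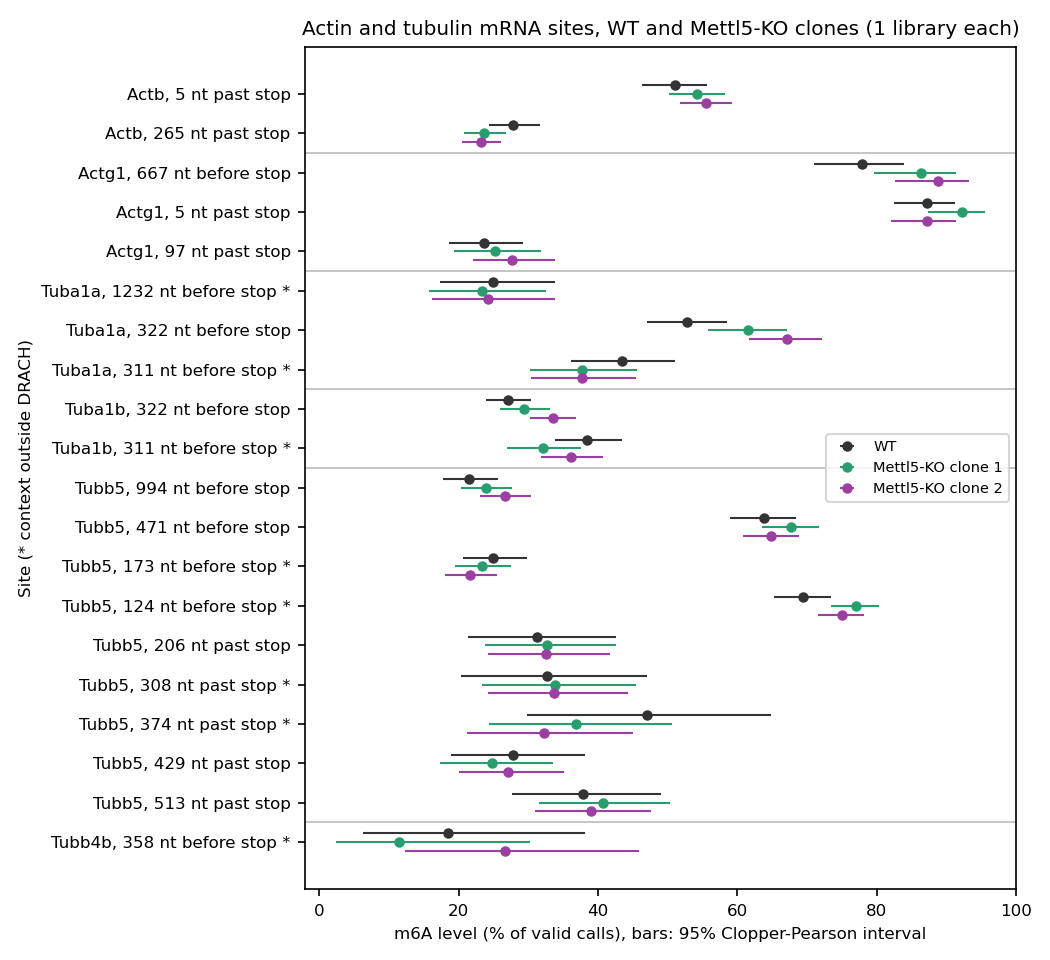
Methylation level (% of valid calls) of 20 of the 21 sites in the WT, Mettl5KO_c1 and Mettl5KO_c2 libraries, grouped by gene and ordered by distance from the stop codon; bars are 95% Clopper-Pearson intervals and an asterisk marks a context outside DRACH. The highest levels are those of the coding site of Actg1, 77.9 to 88.8%, and of its site 5 nt past the stop codon, 87.3 to 92.2%, and the site called in Mettl5KO_c2 is that of Tuba1a 322 nt before the stop codon.

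The called site was Tuba1a codon 345, at 52.8% of 307 valid calls in WT, 61.6% of 292 in Mettl5KO_c1 and 67.1% of 325 in Mettl5KO_c2 (adjusted p = 0.577 and 0.044, Fisher's exact test). The call was lost with a level threshold of 10% or 50%, with failed calls in the denominator and with DRACH sites alone. The site of Tuba1b at the same codon was at 27.1%, 29.4% and 33.6% (adjusted p = 0.95 and 0.282, Fisher's exact test). The window of each of these sites occurs in other genes as well.

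On the actins, the coding site of Actg1 was at 77.9%, 86.3% and 88.8% (adjusted p = 0.705 and 0.343, Fisher's exact test), and its site 5 nt past the stop codon at 87.3%, 92.2% and 87.3%. Actb was at 51%, 54.2% and 55.5% past the stop codon. At its second site it was at 27.8%, 23.7% and 23.2%, the lower one of Mettl5KO_c2 at an unadjusted p of 0.044 (adjusted p = 0.601, Fisher's exact test). Neither actin had a site past the threshold.

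On Tubb5, codon 404 was at 69.4%, 77.0% and 75.0% (adjusted p = 0.322 and 0.565, Fisher's exact test) and codon 288 at 63.9%, 67.7% and 64.9%. Tubb5 also had 3 sites in its 3′ UTR that were not sites in the METTL3 inhibition dataset. They were a GTATA at 32.7%, 33.8% and 33.7%, a TTAAA at 47.1%, 36.8% and 32.3%, and a TGACT at 27.8%, 24.8% and 27.1%, each resting on 34 to 144 valid calls. Tubb4b had counts at 47 positions in this dataset, with 1 site, a GGACG at codon 327 with 18.5% of 27, 11.5% of 26 and 26.7% of 30 valid calls. Tuba1c had none.

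The levels in DMSO and in WT were also compared, at 21 sites measured in both. The datasets differ in cell line, batch label and run, which cannot be told apart. Of these sites 8 were lower and 3 higher in WT (adjusted p below 0.05, Fisher's exact test, Benjamini-Hochberg over 1577 sites), where 11.1% and 3.93% of all sites were. The size of the shift was near that of all sites, with a median WT minus DMSO of -7.6 beside -7.67 percentage points. With or without a call, 76.2% of these sites and 78.1% of all were lower in WT. Sites of the 7 mRNAs in the METTL3 inhibition dataset had a median of 170.5 valid calls in DMSO, beside 56 over all sites. The part of depth in the counts of calls was not tested. WT was lower at 13 of the 14 DRACH sites, beside 84.0% of all DRACH sites. Examples were Tuba1a codon 345 with 68.6% in DMSO and 52.8% in WT and Tubb5 codon 404 with 82.2% and 69.4%.

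**Figure D4:**
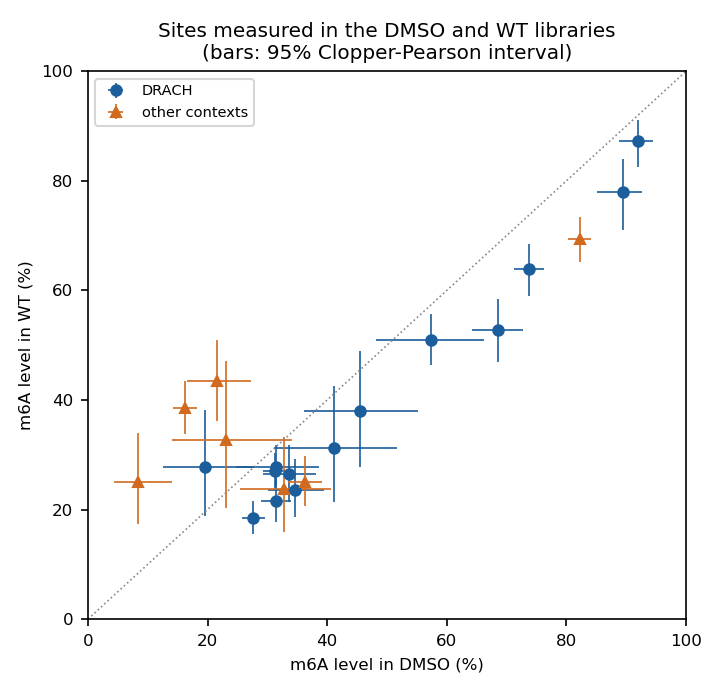
Methylation level in WT against that in DMSO for the 21 sites measured in both, with 95% Clopper-Pearson intervals; circles are DRACH sites, triangles other contexts, and the dotted line marks equal levels. All but 1 of the DRACH sites lie below the line, and 4 of the 7 others above it.

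The 3 sites that were higher in WT were α-tubulin sites outside DRACH. Of all 269 sites outside DRACH, 57 were called higher in WT, and of all 1308 DRACH sites 5 were. A CCACT at codon 349, identical in Tuba1a and Tuba1b, went from 21.6% to 43.5% on Tuba1a (adjusted p = 8.67e-05, Fisher's exact test) and from 16.2% to 38.5% on Tuba1b (adjusted p = 8.62e-18). A CCATT at codon 42 of Tuba1a was at 8.33% and 25% (adjusted p = 0.00501, Fisher's exact test). At these 3 sites 41.6 to 65.9% of calls failed. Over all genes the pooled level at CCACT positions was 1.17% in DMSO, 1.12% in STM2457, 3.74% in WT, 3.83% in Mettl5KO_c1 and 4.0% in Mettl5KO_c2, higher in each library of the Mettl5 dataset.

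Depth along the mRNAs differed between libraries. In bulk RNA, fewer cells that express a gene and less RNA per cell cannot be told apart. Scaled to 1000000 of the library's valid calls at the positions in both datasets, Actb had a median depth of 1.85 in DMSO, 1.75 in STM2457, 17.5 in WT, 28.3 in Mettl5KO_c1 and 28.0 in Mettl5KO_c2. The ratio of WT to DMSO was 9.46, where the 5th and 95th percentiles of 866 genes were 0.411 and 3.43. The same ratio was 1.60 for Actg1, 1.70 for Tuba1a, 0.787 for Tuba1b, 0.835 for Tubb5 and 0.652 for Tubb4b. STM2457 over DMSO gave 0.782 for Tubb5 to 1.34 for Tubb4b, between the 5th and 95th percentiles of all genes, 0.663 and 1.91.

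**Figure D5:**
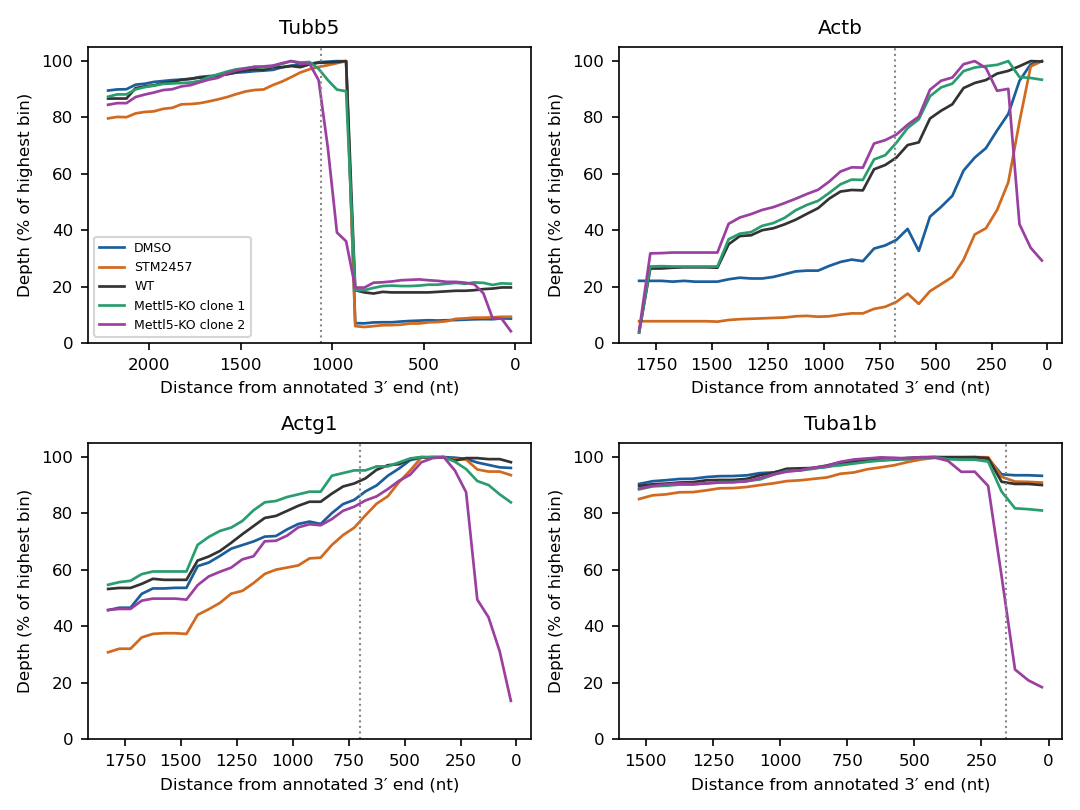
Median read depth in bins of 50 nt, as % of the highest bin of the library, against the distance from the annotated 3′ end for Tubb5, Actb, Actg1 and Tuba1b in the 5 libraries; the dotted line marks the end of the stop codon. The Tubb5 depth falls in a step within the 3′ UTR, and Mettl5KO_c2 loses depth toward the 3′ end in all 4 panels.

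On Tubb5 the depth fell in a step 176 nt past the stop codon in DMSO and WT, and at 177 and 162 nt in STM2457 and Mettl5KO_c1. In Mettl5KO_c2 the depth declined before that point too, from 679.5 over the last 500 coding bases to 278 over the first 150 nt past the stop codon. The fall located in this library lay at 898 nt, where the median depth in bins of 50 nt went from 122 to 61. Across the point of the step in DMSO and WT, its bins went from 249.5 to 136. More than 300 and up to 900 nt past the stop codon, the depth was 8.17% of that of the last 500 coding bases in DMSO and 7.70% in STM2457. It was 18.6% in WT, 20.8% in Mettl5KO_c1 and 22.4% in Mettl5KO_c2, where nearly all of this stretch precedes the fall at 898 nt. The letters AATAAA, the canonical polyadenylation signal, begin 157 nt past the stop codon, within the 50 bases before the step. They were found in 5.57% of windows at the same distance from the stop codon over 2282 genes, searched on the transcript strand. The 2 distal Tubb5 sites of the METTL3 inhibition dataset rested on 95 and 112 valid calls in DMSO, against 1507 at codon 404.

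Mettl5KO_c2 stood apart at the 3′ ends. The median depth over the last 200 nt, divided by that 400 to 800 nt upstream, was 0.434 for Actb, 0.362 for Actg1, 0.419 for Tuba1a and 0.211 for Tuba1b in this library. In WT it was 1.39, 1.03, 1.03 and 0.908, and over 314 genes the median ratio was 0.794 in Mettl5KO_c2, 1.0 in Mettl5KO_c1 and 1.04 in WT. Actb had the opposite shape in the METTL3 inhibition dataset, with ratios of 2.32 in DMSO and 4.71 in STM2457.

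At a few deposited positions the transcript base is not A. At 4 positions of Tuba1b the transcript base is T or C, yet 5.67 to 14.4% of the reads with a base there carried A in the 2 libraries of the METTL3 inhibition dataset. Tuba1c has A at 2 of these positions, 98932077 and 98932079 on Tuba1b, and neither Tuba1a nor Tuba1c has it at the other 2. At Actb position 142903120, 5 nt from the annotated 3′ end, where the transcript base is C, 25.9% of reads carried A in DMSO and 26.2% in STM2457. Base errors and reads placed on a wrong copy were not told apart, and the share of reads from other copies within the α-tubulin levels was not tested.

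Pooled over all covered DRACH adenosines, the level in DMSO was 15.9% for Tuba1c, 15.2% for Tubb4b, 9.21% for Actg1, 8.56% for Tubb5, 6.06% for Tuba1a, 5.16% for Actb and 3.95% for Tuba1b, where all genes gave 7.24%. The counts for Tuba1c and Tubb4b cover mainly their 3′ parts, so their pooled values are not over whole mRNAs. Among 459 genes with a site in both datasets, those with the mean site levels most like the member's over the 5 libraries were Gtpbp4, Bcas2 and Gm9797 for Actb (mean absolute difference 2.17 to 2.53 percentage points), Sox2, Phf23 and Ncl for Actg1 (1.86 to 2.91), and Arf1, Uba2 and Uqcrfs1 for Tubb5 (1.29 to 1.68). For Tuba1a they were Glud1, Tmsb4x and Psap (2.02 to 2.39), for Tuba1b Wdr43, Ndufa2 and Mdh2 (2.64 to 2.85), and for Tubb4b Rrp1, Set and Prdx6b (3.45 to 4.22).

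Other genes of the cytoskeleton were read in the same libraries. Of 20 further actins, actin-related proteins and tubulins, 7 had counts in the METTL3 inhibition dataset and 6 had sites, 35 in all, of which 33 were lower in STM2457. This was 94.3%, beside 91.5% of all sites. Tuba4a, an α-tubulin, had 8 sites with a mean level of 60.9% in DMSO and 17.3% in STM2457. Tubb2b, a β-tubulin, had 8 with 47.0% and 9.12%, and Actr1a, the actin-related protein of dynactin, 7 with 48.7% and 12.2%. In this dataset Tuba4a and Tubb2b carried more sites than any of the 7 mRNAs, whereas in the Mettl5 dataset Tubb5 had 9, Tuba4a 8 and Tubb2b 3.

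Actin-binding proteins had 30 of 40 sites lower over 13 genes, 75.0% beside the 91.5% of all sites. Of the 40 sites, 2 were called higher, where 0.323% of all sites were, and 70.0% were DRACH beside 88.6% of all. The genes with the most sites were Actn4, an actin crosslinker, with 3 of 7 lower, Coro1c, a coronin, with 5 of 5, and Fscn1, which bundles filaments, with 5 of 5. Of the microtubule-binding and tubulin-folding proteins, 20 of 22 sites (90.9%) were lower over 8 genes. Tbcc, a tubulin-folding cofactor, had 8 of 8 at a mean level of 64.4% in DMSO and 17.4% in STM2457, Map1lc3b, known from autophagy, 4 of 5, and Dynll2, a dynein light chain, Map4 and Mapre1, which bind microtubules, 2 of 2 each. In the list of chaperonin and prefoldin subunits, which fold new actin and tubulin, all 10 sites of 5 genes were lower. Of these, 5 were on Tcp1 and 1 each on Cct3, Cct6a and Pfdn1. The other 2 were on Pdcl3, which was in the list but is not itself such a subunit. In the Mettl5 dataset these 4 lists held 46 sites, of which 0 were called in either clone by Fisher's exact test and 2 were higher and 0 lower in each at an unadjusted p of 0.05, beside the shares of 0.53% and 0.583% called and the 97 higher and 31 lower or 109 and 41 of 1886 sites given above.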

How the data were processed

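Reads were separated by barcode with WarpDemuX, basecalled with m6A detection and aligned to mm10 by dorado, and summed per position by modkit, all by the authors. The deposited values are counts of valid, m6A, unmodified, failed and other calls per adenosine and strand, not normalized, and the deposited percent is the m6A calls over the valid calls. Failed calls are left out of that percent. Both deposited tables hold positions with at least 25 valid calls in every library.

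Levels were computed from these counts, with Clopper-Pearson 95% intervals. At each site, libraries were compared by a two-sided Fisher's exact test (scipy 1.17.1 under Python 3.11.15, with pandas 2.3.3 and numpy 2.4.6), and p-values were adjusted by Benjamini-Hochberg across every site of all genes. Intervals and tests cover counting error only. A site at 25% or more in DMSO with a relative decrease under 25% was counted as not responsive. Coding sequences were aligned through their proteins (Biopython 1.88), and differences between aligned positions have Newcombe 95% intervals. The script was tested on simulated data. The gene names, pathway lists and rules were chosen with earlier results of these data known. Named were the 7 genes with each of their sites, except 1 aligned position that is not reported here, from each pathway list the 3 genes with the most sites (ties included) and, per member, the 3 genes with the most similar mean site levels.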

Additional observations from a re-analysis of the deposited data

How the results depend on the processing

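With a level threshold of 10% in place of 25%, the 7 mRNAs had 59 sites in the METTL3 inhibition dataset, of which 35 were lower in STM2457 and 14 not responsive, 58 sites in the Mettl5 dataset with 0 called in Mettl5KO_c2, and 21 that differed between DMSO and WT. With 50% these counts were 9, 8, 0, 6, 0 and 4. With failed calls in the denominator 1 site was not responsive and 0 were called in Mettl5KO_c2. With DRACH sites alone 0 were not responsive, the Mettl5 dataset had 13 sites with 0 called in Mettl5KO_c2, and 6 differed between DMSO and WT. At positions whose 51-base window occurs in no other gene there were 13 sites, 10 of them lower and 1 not responsive, 13 sites in the Mettl5 dataset with 0 called in Mettl5KO_c2, 5 that differed between DMSO and WT, and 2 pairs of paralogous positions whose interval excluded 0 in place of 13. By the rule of 25% or more in both libraries 5 sites were not responsive. At an unadjusted p of 0.05, 2 sites differed from WT in Mettl5KO_c1 and 5 in Mettl5KO_c2, and by a log2 ratio of at least 1.5, with no test, 0 in Mettl5KO_c2. The count that differed from WT ran from 0 to 1 when Mettl5KO_c1 or Mettl5KO_c2 was left out. The fewer paralogous pairs follow from the filter, which removes most α-tubulin positions. It also removes the Actg1 sites at codons 16 and 154 and the coding sites of Tubb4b, whose windows occur in other genes too. The causes of the other changes were not tested. The remaining 56 of these 86 values, among them each median relative decrease (78.5 to 86.9%) and each value with a coverage above 49, stayed within the set limits. No value changed direction. Each condition had 1 library, so no spread between cultures is known. The fewest valid calls lay at Tubb4b sites, with 26 at codon 165 in STM2457 and 26 at codon 327 in Mettl5KO_c1. Tuba1c had 33 to 58 valid calls at its sites. No paired analysis was possible because the groups compared share fewer than 2 replicate numbers.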

Other observations

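Calls of another modification reached 25% or more of valid calls at 6 positions of the 7 mRNAs in the METTL3 inhibition dataset and at 5 in the Mettl5 dataset. On Tubb5, at position 35835215 in the coding sequence, they made up 36.7% of 749 valid calls in DMSO, 33.9% of 416 in STM2457, 48.8% of 256 in WT, 54.0% of 309 in Mettl5KO_c1 and 52.2% of 345 in Mettl5KO_c2. On Actb, at position 142903524 in the 3′ UTR, they made up 31.4% of 51, 35.9% of 39, 37.9% of 169, 31.1% of 225 and 39.0% of 249 in the same order. None of these positions differed between STM2457 and DMSO or between a clone and WT after Benjamini-Hochberg adjustment over all 372 and 152 such positions (Fisher's exact test, smallest adjusted p 0.52), where 3 of all 372 did in STM2457, 0 of 152 in Mettl5KO_c1 and 1 of 152 in Mettl5KO_c2. At an unadjusted p of 0.05, 1 of them differed, a coding position of Tuba1a at 25.5% in WT and 16.3% in Mettl5KO_c2.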
